A study of Arabidopsis thaliana with 23 samples.

Results

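A set of 197 windows of 100 bp in the Arabidopsis nuclear genome gained 24-nt small RNAs in zmp-2 plants and kept most of them when SHH1 was lost as well. They were taken from 548681 windows on chromosomes 1 to 5 that held a 24-nt read in any library. A window entered when the 6 WT libraries held at most 6 24-nt reads in total, when its mean reached 1.5 RPM (reads scaled by all mapped reads of the library) in zmp-2 in each of 2 sets of libraries, and when its mean RPM in zmp-2 shh1-1 was at least 0.5 of that in zmp-2 of the same set. The first 2 conditions gave 294 new windows, of which 97 fell short of the SHH1 condition and serve here as the other new windows. Because WT, zmp-2 and zmp-2 shh1-1 reads chose the windows, their levels in those genotypes are given as a description with no test.

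The study sequenced small RNAs from inflorescences of Col-0 plants grown in long days at 23 °C, in 23 libraries. Their titles mark each library A or B without saying what the letters stand for, and libraries are compared within a letter. Set A held WT (3 libraries), zmp-2 (3), nrpd1-3 (2) and ZMP-YFP zmp-2 (3), and set B held WT (3), zmp-2 (3), zmp-2 shh1-1 (3) and zmp-2 nrpd1-3 (3). zmp-2, nrpd1-3 and shh1-1 are T-DNA insertion alleles of ZMP, NRPD1 and SHH1, and ZMP-YFP zmp-2 is zmp-2 with a transgene for YFP-tagged ZMP under ZMP's own promoter. WT and zmp-2 were thus measured in both sets, whereas the tagged line and the SHH1 double mutant were each measured in 1 set only. Small RNA reads do not measure the transcripts of the mutated genes, so of the genotypes only the Pol IV mutants were checked, by their 24-nt share. In them 24-nt reads made up 9.68 to 11.4% of the nuclear reads of 21 to 24 nt. The share was 53.1 to 56.1% in zmp-2 shh1-1 and 59.5 to 63.4% in the remaining libraries.

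RNA-directed DNA methylation is the plant pathway in which small RNAs guide DNA methylation, mainly to transposons and other repeats. It starts with RNA polymerase IV (Pol IV), whose largest subunit is NRPD1. Pol IV transcripts are copied into double-stranded RNA by RDR2 and cut into 24-nt siRNAs by DCL3. SHH1 reads histone H3 marked by lysine 9 methylation and brings Pol IV to many of its targets, and ZMP is a chromatin protein that binds Pol IV. Genes that are transcribed by RNA polymerase II usually give few 24-nt siRNAs.

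Sequences of 6 of the windows are shown to give the places that the results below turn on: the strongest window outside AT5G44770, the strongest window between genes that is uniquely mappable, 3 windows where 24-nt reads stayed high with ZMP-YFP, and a window in a microRNA precursor. They are the plus strand of RefSeq TAIR10.1, and capitals mark coding bases.
AT5G22270 coding sequence, chr5:7372601-7372700: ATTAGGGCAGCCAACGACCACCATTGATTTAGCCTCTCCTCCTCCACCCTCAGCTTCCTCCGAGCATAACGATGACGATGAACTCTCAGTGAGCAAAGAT
between genes, chr2:9911101-9911200: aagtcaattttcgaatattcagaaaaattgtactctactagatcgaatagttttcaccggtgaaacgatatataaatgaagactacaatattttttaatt
between genes, chr3:10741801-10741900: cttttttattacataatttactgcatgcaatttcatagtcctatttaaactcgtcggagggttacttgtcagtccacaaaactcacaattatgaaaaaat
between genes, chr3:11031301-11031400: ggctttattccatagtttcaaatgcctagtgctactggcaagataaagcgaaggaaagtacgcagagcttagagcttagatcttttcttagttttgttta
AT4G04975 lncRNA exon, chr4:2434601-2434700: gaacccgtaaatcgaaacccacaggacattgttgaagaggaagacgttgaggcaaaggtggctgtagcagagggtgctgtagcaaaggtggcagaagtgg
MIR167d precursor, chr1:11137801-11137900: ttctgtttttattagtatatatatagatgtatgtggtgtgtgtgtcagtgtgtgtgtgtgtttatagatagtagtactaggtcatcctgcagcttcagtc

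ZMP-YFP replicate 1 stood apart from the other ZMP-YFP libraries and is therefore described before the results. The ZMP gene itself (AT5G63700) held 793 24-nt reads in that library but 9 and 5 in the others, and at most 6 in any zmp-2 library and 1 in any WT library. At the 197 windows, replicate 1 was the highest ZMP-YFP library in 122 windows, replicate 2 in 30 and replicate 3 in 22. The part of these reads at ZMP in the result was not tested, and the main summary values of the tagged line are given with and without replicate 1.

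In zmp-2, the 197 windows averaged 5.14, 5.97 and 5.27 RPM of 24-nt reads per window in the libraries of set A and 3.15, 3.55 and 4.06 RPM in those of set B. In zmp-2 shh1-1 they averaged 7.50, 6.23 and 6.58 RPM, above every zmp-2 library of the same set. The WT libraries averaged 0.105 ± 0.00745 RPM (set A) and 0.0781 ± 0.0124 RPM (set B; SD, n = 3 for both), low by the choice of the windows. At the 97 other new windows, the 3 zmp-2 libraries of set B averaged 5.78 ± 0.236 RPM, whereas the zmp-2 shh1-1 libraries averaged 0.347 ± 0.0324 RPM (SD, n = 3 for both).

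Few 24-nt reads were found at these windows in plants without Pol IV. In zmp-2 nrpd1-3 they held 7 24-nt reads summed over 3 libraries, and 190 of the 197 held no read. In nrpd1-3, with ZMP present, they held 47 reads in 2 libraries, with no read in 167 windows and at most 3 reads in any. The zmp-2 nrpd1-3 libraries had 1.18 to 1.39 M mapped reads and the nrpd1-3 libraries 2.23 and 3.68 M, against 2.31 to 9.90 M in the others, so a window without reads is not shown to be empty.

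**Figure D1:**
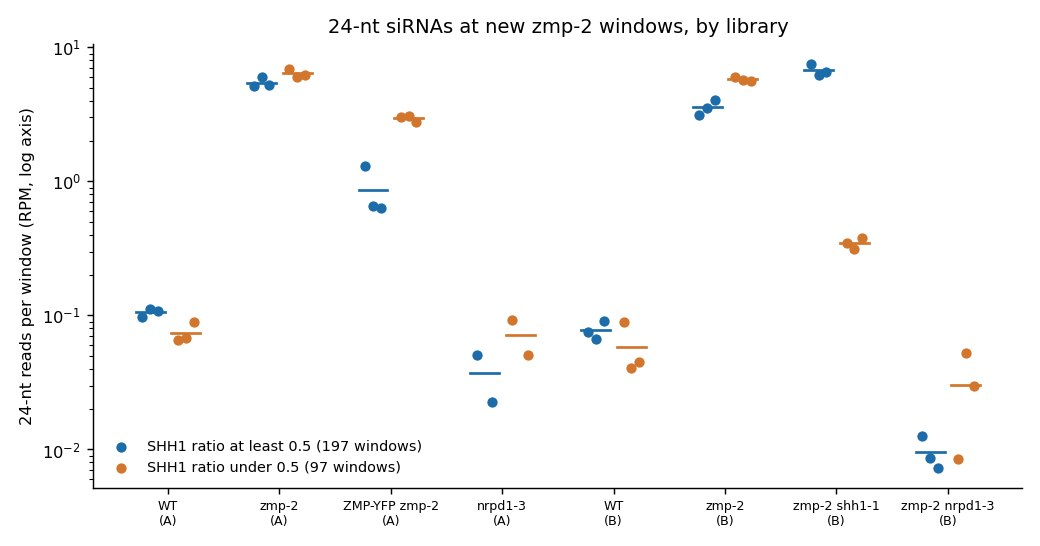
Mean 24-nt reads per window (RPM, log axis) in every library (points) and group (bars for group means), for the 197 windows with an SHH1 ratio of at least 0.5 (blue) and the 97 under 0.5 (orange). In zmp-2 shh1-1 the blue points sit between 6.23 and 7.50 RPM and the orange group averages 0.347 RPM, and in ZMP-YFP zmp-2 the blue points sit between 0.631 and 1.30 RPM.

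Few new windows had a ratio of zmp-2 shh1-1 to zmp-2 close to the limit of 0.5. Of the 294 new windows, 57 had a ratio under 0.05, 14 lay from 0.25 to 0.5 and 10 from 0.5 to 0.75. Among the 197 windows the ratio had a median of 1.77 (quartiles 1.30 and 2.32, range 0.551 to 6.11), and it reached 1 in 175 windows. Its level depends on the scale. On the deposited score RPMR, the count scaled by 45S rRNA reads, the median was 0.873, 78 windows reached 1 and 23 fell below 0.5, and the zmp-2 shh1-1 libraries held 0.978 to 1.53 M 45S rRNA reads against 0.384 to 0.470 M in zmp-2 of set B. Whether the windows held more 24-nt siRNAs in the double mutant than in zmp-2 thus depends on the scale. At the other new windows the RPMR ratio had a median of 0.0148 and a highest value of 0.227, against a lowest value of 0.244 among the 197. The RPM ratio split the 2 kinds of window, and RPMR differs from it mainly by a factor for each library, so this order follows from the rule.

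At the WT limit of 6 reads there were 27 windows, the first being chr1:4313901-4314000 in the thionin pseudogene AT1G12667, and 17 further windows missed it by 1 read. The lowest SHH1 ratio inside was 0.551, at chr3:9472901-9473000, and the highest outside was 0.490, at chr1:6706001-6706100. For the zmp-2 mean of set A, the nearest windows had 1.502 RPM (chr5:10153801-10153900) and 1.483 RPM (chr1:9012601-9012700, left out). For set B, chr3:8146201-8146300 had 1.507 RPM, and chr5:8772001-8772100 was left out at 1.4997 RPM.

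Most of the windows held lower zmp-2 levels in set B than in set A. The median window held 3.45 RPM in zmp-2 of set A and 2.36 RPM in set B. The ratio of B to A had a median of 0.723 (range 0.196 to 3.51) and reached 1 in 41 of the 197 windows. At the other new windows its median was 0.971, and the difference was not tested. zmp-2 of set B is also the denominator of the SHH1 ratio. Across the 197 windows the log2 levels of the 2 sets had a Pearson correlation of 0.79, a description only, since the windows share libraries and both levels were used to choose them. A read was present in all 3 libraries for 195 windows in zmp-2 of set A, 186 in set B and 191 in zmp-2 shh1-1. By contrast, 36 of the windows had no read in any of the 6 WT libraries.

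Joined where they lay no more than 200 bp apart, the 197 windows made 143 loci, of which 108 were a single window, 24 held 2 windows, 7 held 3, 2 held 4, 1 held 5 and 1 held 7. Chromosomes 1 to 5 carried 48, 48, 27, 35 and 39 of the windows. Most loci were thus single windows with no chosen neighbour.

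The locus of 7 windows lay in the coding sequence and UTR of AT5G44770, which encodes a cysteine- and histidine-rich C1 domain protein. Its windows summed to 167, 206 and 146 RPM in zmp-2 of set A, 73.7, 42.7 and 46.6 RPM in ZMP-YFP zmp-2 and at most 0.939 RPM in any WT library. These sums leave out the 2 strongest windows within the locus, chr5:18065501-18065600 and chr5:18065601-18065700, which had 9 and 13 WT reads and so failed the WT limit. They held means of 89.6 and 52.1 RPM in zmp-2 of set A and 39.7 and 23.8 RPM in ZMP-YFP zmp-2. In set B they held 38.1 and 30.5 RPM in zmp-2 and 58.5 and 39.5 RPM in zmp-2 shh1-1.

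The locus of 5 windows lay in AT5G22270, a gene of unknown function on chromosome 5 (7372109 to 7373259, minus strand), and covered coding sequence, UTR and intron. Its windows (chr5:7372401-7372900) summed to 53.1, 57.5 and 56.9 RPM in zmp-2 of set A and to 50.1, 55.5 and 54.6 RPM in zmp-2 of set B. Loss of SHH1 went with higher sums on this scale, of 125, 137 and 113 RPM, and on the RPMR scale the ratio at its strongest window was 1.12. WT held no read in set A and at most 0.245 RPM in set B. In ZMP-YFP zmp-2 the sums were 1.20, 0 and 0 RPM, so the gain of siRNAs at this gene was absent from 2 of the 3 libraries with the tagged copy and close to absent in the other. The strongest window, chr5:7372601-7372700 (its sequence is given above), held 202, 125 and 232 reads in zmp-2 of set A and 3, 0 and 0 in ZMP-YFP zmp-2.

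A locus of 4 windows between genes, chr2:9910901-9911300, lay about 3046 bp from AT2G23300, a leucine-rich repeat kinase gene. It summed to 40.8, 46.5 and 49.3 RPM in zmp-2 of set A, 13.9, 25.5 and 27.3 RPM in set B and 42.5, 28.5 and 26.3 RPM in zmp-2 shh1-1. ZMP-YFP zmp-2 held 2.60, 0.963 and 1.46 RPM, lower than every zmp-2 library.

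The other locus of 4 windows lay in AT2G24260 (chr2:10319401-10320000), which encodes LRL1, a bHLH transcription factor of root hair growth. Its windows covered coding sequence and UTR and summed to 21.998, 31.6 and 26.3 RPM in zmp-2 of set A, to 13.3, 12.7 and 15.2 RPM in set B and to 51.3, 32.5 and 35.6 RPM in zmp-2 shh1-1. ZMP-YFP replicate 1 held 10.4 RPM, whereas replicates 2 and 3 held 0.963 and 0.731 RPM. A window inside this locus was left out by its 14 WT reads (chr2:10319501-10319600, a mean of 18.9 RPM in zmp-2 of set A) and another by its zmp-2 mean in set B.

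The strongest of the 7 loci of 3 windows covered almost the whole of AT2G04015, an lncRNA gene on chromosome 2 (258998 to 259325). It summed to 32.5, 29.5 and 40.5 RPM in zmp-2 of set A and 41.8, 32.1 and 39.5 RPM in zmp-2 shh1-1 of set B. Values of different sets are not compared here. Here too ZMP-YFP replicate 1 stood apart, with 18.4 RPM against 0.214 and 0.244 RPM in the other replicates. The window just before AT2G04015 was left out by its WT reads. It held a mean of 28.1 RPM in zmp-2 of set A and 78.1 RPM in zmp-2 shh1-1 of set B. A locus between genes near AT4G02320 (chr4:1027801-1028100) behaved in the same way in the tagged line, with 3.99 RPM in replicate 1 and 0.107 and 0.244 RPM in the others, against 19.4, 30.2 and 18.8 RPM in zmp-2 of set A. Within 1 kb of it lay a window of old siRNAs with a mean of 819 RPM in WT and 355 RPM in zmp-2 of set A, so gain and loss of siRNAs were neighbours at this place.

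**Figure D2:**
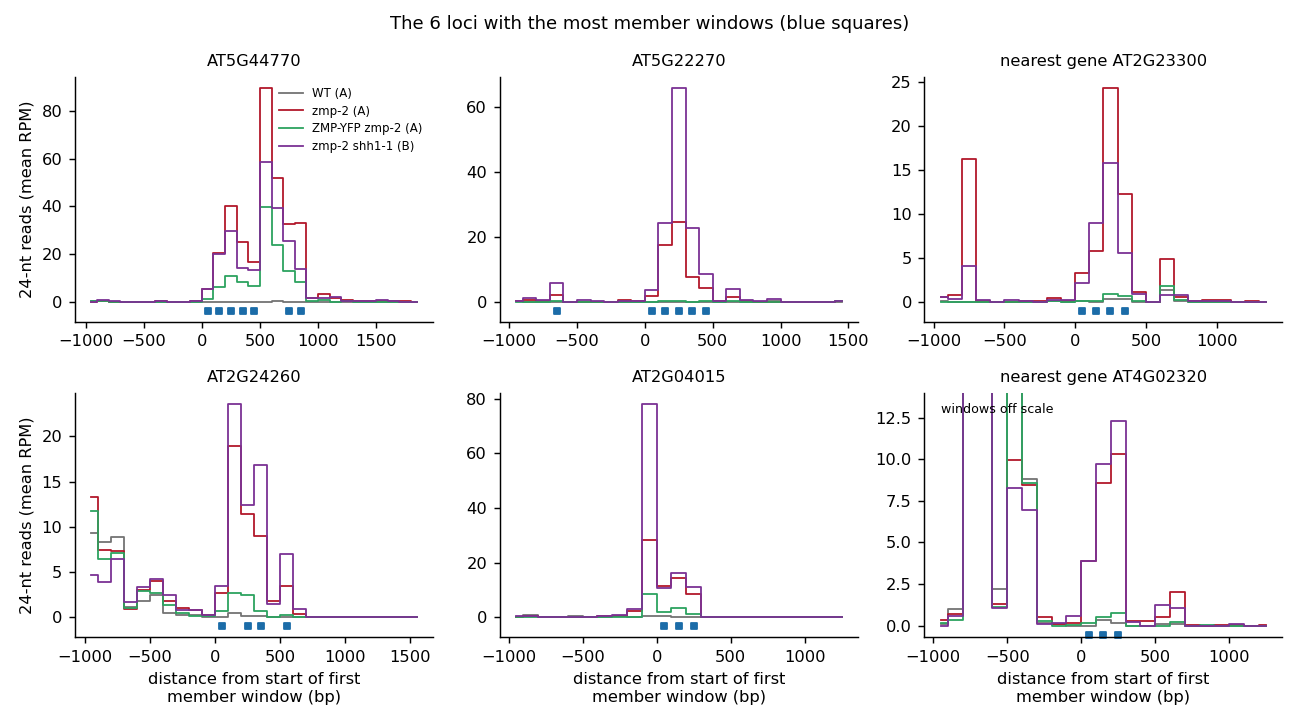
Mean 24-nt reads (RPM) in windows of 100 bp along the 6 loci with the most windows, against the distance from the start of the first window (bp), in WT and zmp-2 of set A, ZMP-YFP zmp-2 and zmp-2 shh1-1. Blue squares mark the windows chosen, and in the panel near AT4G02320 neighbouring windows rise to 819 RPM in WT and run off the axis. Over the chosen windows of all 6 loci, zmp-2 (red) and zmp-2 shh1-1 (purple) lie above WT (grey), which stays near 0 there. The purple line is of set B and the others are of set A.

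Among the 8 strongest windows, 5 lay in AT5G44770, and the rest were the AT5G22270 window, chr2:9911101-9911200 and chr5:12877501-12877600, between genes on pericentromeric chromosome 5. The last held 26.8, 35.9 and 28.6 RPM in zmp-2 of set A and 0.200, 1.07 and 0.975 RPM in ZMP-YFP zmp-2. In set B it held 11.2, 2.83 and 12.999 RPM in zmp-2 (41, 10 and 30 reads) and 27.4, 21.6 and 20.2 RPM in zmp-2 shh1-1. Its SHH1 ratio was 2.56 on RPM and 1.32 on the RPMR scale. Only 21% of its 24-mers occur at a single place in the genome, so its reads may belong to copies elsewhere.

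On a wider scale, joining windows up to 50 kb apart gave 106 clusters, and the 7 of at least 5 windows held 49 of the 197. The largest spanned 41.4 kb of pericentromeric chromosome 1 (chr1:16186201-16227600) and held 14 windows in 11 loci. Its genes were AT1G43080, AT1G43090 and AT1G43100, which encode pectin lyase-like proteins that act on cell wall pectin, and the pseudogenes AT1G43050, AT1G43110 and AT1G43120. None of its 14 windows was uniquely mappable, meaning that at least 90% of its 24-mers occur at a single place in the genome. The copies share reads, and which copy the siRNAs came from is uncertain. A cluster of 6 windows on chromosome 2 (chr2:5198301-5206400) had no uniquely mappable window either. Clusters at unique sequence included 6 windows near AT3G25630 (chr3:9329701-9331200) and 5 windows on chromosome 1 (chr1:24604301-24626700) from the immune receptor gene AT1G66090 to AT1G66145, which encodes the signalling peptide CLE18.

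The centre of 97 windows (49.2%) lay in an annotated gene, against 27.8% of the 97 other new windows and 56.4% of all windows with a 24-nt read. The difference between the 2 kinds of new window was not tested. Coding sequence held 40 windows (20.3%, against 13.4% of the other new windows and 22.3% of all windows), UTRs 14 and introns 10. A further 23 lay in pseudogenes, 9 in lncRNA genes and 1 in a microRNA gene. The 100 windows between genes included 58 within 1000 bp of a gene. The 97 windows fell in 62 genes, 39 of them protein-coding, with 6 genes holding 3 or more windows, 15 holding 2 and 41 holding 1. Besides the genes named above, the 6 included the transcribed pseudogenes AT1G43110 (4 windows) and AT1G43050 (3 windows), both repeated in the genome.

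Searched by the words of their annotation, the genes held a few recurrent kinds. Pectin was the most frequent, with 8 windows in 5 genes (4.06% of the 197, against 0.351% of all windows with a 24-nt read), but only 4 of the 8 were uniquely mappable. These 4 lay in AT4G32370 and AT4G32375 on chromosome 4. Genes described as defensin-like, a family of small secreted cysteine-rich proteins, held 4 windows in 3 genes (2.03%, against 0.0673%), and all 4 were uniquely mappable. The 3 genes include the transcribed pseudogene AT1G48422. Disease resistance held 2 windows (1.02%, against 0.487%), cytochrome P450 2 windows in 1 gene (1.02%, against 0.331%) and zinc finger 2 windows (1.02%, against 0.729%). No window lay in a gene described with F-box, receptor-like, transpos, histone or hypothetical protein, where F-box genes held 0.594% of all windows. The words were searched in product names for all windows, but for the 197 also in the notes of genes without a product name. The shares are thus not fully alike. No test of enrichment was made, and neighbouring windows of 1 gene are not independent.

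Of these genes, whose values were seen before they were picked for naming, AT2G22805 (defensin-like, chromosome 2) summed over its 2 windows to 32.4, 36.8 and 34.3 RPM in zmp-2 of set A, 31.7, 24.7 and 32.5 RPM in zmp-2 shh1-1 and 4.19, 0.535 and 0.731 RPM in ZMP-YFP zmp-2. AT4G32375 (pectin lyase-like) had no read in any WT library at its 2 windows and summed to 15.8, 17.4 and 16.2 RPM in zmp-2 of set A, against 0.200, 0 and 0 RPM with the tagged copy. AT2G29090 encodes CYP707A2, an enzyme that breaks down the hormone abscisic acid, and its 2 coding windows averaged 2.36 and 3.15 RPM in zmp-2 of set A and 1.99 and 2.48 RPM in zmp-2 shh1-1. AT1G66090, a TIR-NBS immune receptor gene, had a single window with no read in any WT library, 79, 52 and 113 reads in zmp-2 of set A and 49, 31 and 37 reads in zmp-2 shh1-1. These counts are not scaled by depth. The zmp-2 libraries of set A had 9.14, 4.43 and 9.90 M mapped reads, and those of zmp-2 shh1-1 had 4.23, 4.21 and 3.57 M. For all of these genes zmp-2 shh1-1 is of set B, so its values are not compared with zmp-2 of set A. Levels in zmp-2 were lower in set B at the median window, so lower values in zmp-2 shh1-1 here do not show a fall. At AT1G66090, for example, the mean of zmp-2 over both sets was 6.63 RPM, against 10.6 RPM in set A alone.

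Uniquely mappable windows also lay in genes of many other roles, of which a few are given, again picked with their values in view. AT5G23030, which encodes the membrane protein tetraspanin12, held 96, 65 and 87 reads in its coding window in zmp-2 of set A, 39, 28 and 34 in zmp-2 shh1-1 and 3, 3 and 0 in ZMP-YFP zmp-2. AT5G23660, the phloem sugar transporter gene SWEET12, held 35, 13 and 16 reads in an intron in zmp-2 of set A and 4, 3 and 1 with the transgene. AT2G25230, a MYB transcription factor gene, held 27, 21 and 40 reads in the first of its 2 coding windows in zmp-2 of set A, 23, 32 and 17 reads in zmp-2 shh1-1 and none with the transgene. In each of these windows WT libraries held at most 2 reads. WT and zmp-2 reads chose the windows, so these levels are a description only. The counts are not scaled by depth, and those of zmp-2 shh1-1, of set B, are not compared with zmp-2 of set A. Lower counts in zmp-2 shh1-1 thus do not show a fall with SHH1 lost. At AT5G23030 the mean of zmp-2 over both sets was 8.30 RPM, against 11.3 RPM in set A alone.

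The other size classes were examined next, since the windows were chosen by 24-nt reads alone. Among reads of 21 to 24 nt at the 197 windows, 24-nt reads made up 71.4% ± 0.794 in zmp-2 of set A, 71.8% ± 0.393 in set B and 71.7% ± 0.843 with SHH1 lost too (SD, n = 3 for all). In ZMP-YFP zmp-2 the share was 66.0% ± 3.72 (SD, n = 3; 64.2% ± 2.81 without replicate 1, n = 2), and the few reads of WT gave 57.8% ± 1.70 and 52.3% ± 2.95 in sets A and B. The rule asked for few 24-nt reads in WT and set no limit on shorter reads, so a lower 24-nt share in WT follows from it. It also asked for 24-nt reads in zmp-2 and zmp-2 shh1-1, which favours a high share there. Over all nuclear reads of 21 to 24 nt, the share was 61.0 to 62.7% in zmp-2 of set A. In set B it was 60.2 to 62.1% in zmp-2 and 53.1 to 56.1% in zmp-2 shh1-1. At the 197 windows the remainder in zmp-2 of set A was mostly 23-nt reads (11.6% ± 0.0459) and 22-nt reads (10.8% ± 0.603), with 6.20% ± 0.321 of 21 nt (SD, n = 3 each). Of the 78 loci with at least 100 reads of 21 to 24 nt in zmp-2 of set A, 76 had at least 50% 24-nt reads, with a median of 72.0%.

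**Figure D3:**
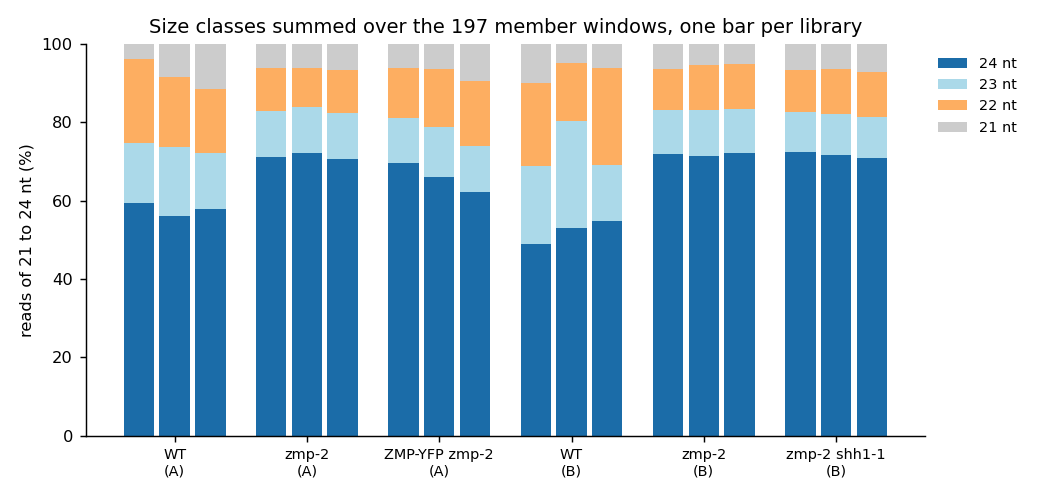
Share of 21-, 22-, 23- and 24-nt reads (%) among reads of 21 to 24 nt, summed over the 197 windows, with 1 bar for each library. The dark blue 24-nt part averages 71.4% and 71.8% in zmp-2 of the 2 sets and 71.7% in zmp-2 shh1-1, and its lower share in the WT libraries follows from the choice of windows with few 24-nt reads in WT. The choice by 24-nt reads in zmp-2 and zmp-2 shh1-1 likewise favours a high share in those libraries.

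The 2 loci below 50% were single windows. At chr5:11255701-11255800, a repeated sequence with no 24-mer of its own, 62.3% of the reads were 23 nt and 35.9% were 24 nt. At the MIR167d window 44.6% were 22 nt and 37.9% were 24 nt. Of loci with high shares, picked after their values were seen, chr1:25579301-25579400, near AT1G68250, had 98.4% of 24 nt (Wilson 95% interval 96.0 to 99.4%). At AT1G66090 the 24-nt share was 90.7% (86.6 to 93.6%). These intervals cover counting error alone.

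The window in the MIR167d precursor (AT1G31173, chromosome 1, 11137539 to 11137915, plus strand) carried small RNAs of another size in WT already. MIR167 precursors are cut by DCL1 into miR167, which represses auxin response factors. WT held 16, 4 and 11 reads of 22 nt there in set A and 12, 10 and 12 in set B, but 24-nt reads were 0 in all WT libraries but 1, which had 1 read. In zmp-2 the 24-nt reads were 23, 10 and 34 in set A and 7, 4 and 14 in set B, and in zmp-2 shh1-1 they were 21, 33 and 36. With ZMP-YFP, 22-nt reads remained at 13, 26 and 14, and no 24-nt read was found in any of the 3 libraries, which allows up to 3 reads over the group. In nrpd1-3, 22-nt reads were 33 and 49 and 24-nt reads 0 in both libraries. The annotated mature miR167d lies outside this window. Whether the 22-nt reads were cut from another part of the precursor in making miR167d was not tested.

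Nearly all of the windows held fewer 24-nt reads in ZMP-YFP zmp-2 than in zmp-2, and some held none. The libraries of ZMP-YFP zmp-2 averaged 1.30, 0.654 and 0.631 RPM per window, against 5.14 to 5.97 RPM in zmp-2 of the same set. The ratio of ZMP-YFP zmp-2 to zmp-2 had a median of 0.0636 (quartiles 0.0237 and 0.168, range 0 to 2.24). It was under 0.1 in 120 windows and under 0.25 in 168, and 23 windows had no read in the tagged line. At the other new windows the median was 0.244, and 26 of 97 reached 0.5, against 9 of the 197. The difference between the 2 kinds of window was not tested. Without ZMP-YFP replicate 1 the median of the 197 windows was 0.0224, so 1 library moved this value by more than 1.5-fold, and 148 windows were under 0.1, 178 under 0.25 and 72 without a read. The median of the other new windows was then 0.138, and 25 of 97 reached 0.5, against 8 of the 197. By library, the sum over the windows came to 0.238, 0.120 and 0.116 of the zmp-2 level, and the corresponding values at the other new windows were 0.470, 0.482 and 0.433.

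In the fit across all windows (quasi-likelihood test of edgeR, scaled by 45S rRNA reads, called from 2-fold and an FDR of at most 0.05 after Benjamini-Hochberg adjustment), all 197 windows could be tested for ZMP-YFP zmp-2 against zmp-2. Of these, 178 were lower and 1 was higher in the tagged line, where 4.38% of all 149450 windows tested were lower and 4.02% were higher. zmp-2 reads chose the windows, so nothing is read from this count. The median log2 fold change was -3.98 (-3.82 when the 23 windows without reads were set at 3 reads over the group), against -0.44 over all windows. Without ZMP-YFP replicate 1, 181 were lower and the median was -4.98.

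**Figure D4:**
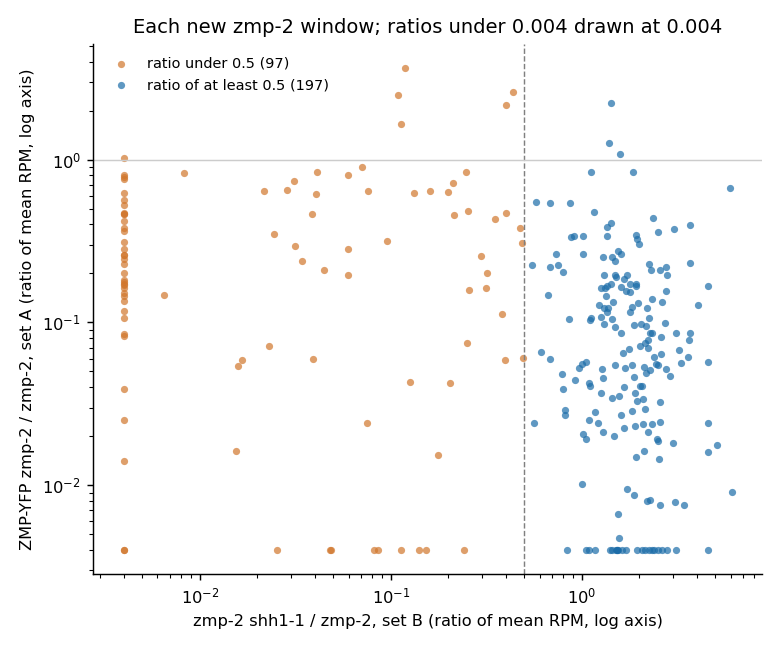
Each of the 294 new windows by its ratio of mean RPM in zmp-2 shh1-1 to zmp-2 of set B (horizontal, log axis) and in ZMP-YFP zmp-2 to zmp-2 of set A (vertical, log axis), with ratios under 0.004 drawn at 0.004. The dashed line is the limit of 0.5 on the SHH1 ratio. Most of the 197 windows to its right lie below a ZMP-YFP ratio of 0.25, and 3 of them lie at or above 1.

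ZMP-YFP zmp-2 against nrpd1-3 was the comparison in which neither group had chosen the windows, and it asks whether siRNAs that were left with the transgene exceeded those without Pol IV. Only 55 of the 197 windows had the 10 reads over both groups that a test needed, and the other 142 were below that. Of the 55, 39 had no nrpd1-3 read and none was without a ZMP-YFP read, so most passed this filter through the tagged line alone and could hardly come out lower there. Of the 55, 54 were higher in ZMP-YFP zmp-2 and none was lower (edgeR, the same limits), where 99.0% of all 86061 windows tested were higher and 0.122% were lower. The share is near the background, and nothing about these windows is read from it. The window that was not called, chr5:15892501-15892600, held 0, 8 and 1 reads in ZMP-YFP zmp-2 and 2 and 1 in nrpd1-3. The median log2 fold change was 6.06, and 3.58 with the 39 windows lacking nrpd1-3 reads set at 3 reads over the group, against 6.37 and 3.99 over all windows. The calls differed between settings. With total reads of 21 to 24 nt as library size 18 of 55 were higher, with a median log2 fold change of 4.84. With TMM factors in edgeR none was (5 at an unadjusted p under 0.05), at a median of 4.63. With DESeq2, which changes the scaling and the model together, none was higher and 1 was lower (2 at an unadjusted p under 0.05), at a median of -0.86. Without ZMP-YFP replicate 1 only 25 of the windows could be tested, and all 25 were higher.

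At 3 windows the mean of ZMP-YFP zmp-2 was at least that of zmp-2. The window with the highest ratio was chr3:10741801-10741900, 871 bp from AT3G28660, with 8.10, 9.02 and 7.28 RPM in zmp-2 of set A and 18.8, 22.04 and 13.9 RPM in ZMP-YFP zmp-2. The ratio was 2.24 and the groups did not overlap, a description only, since zmp-2 reads and the ratio itself picked the window. In WT it held 1, 0 and 0 reads in set A and 0, 0 and 5 in set B.

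The second was chr3:11031301-11031400, 78 bp from the noncoding gene AT3G00550, with a ratio of 1.27. It held 7.66, 10.15 and 9.90 RPM in zmp-2 of set A and 8.98, 12.7 and 13.4 RPM in ZMP-YFP zmp-2, so the groups overlapped. The third, in the lncRNA gene AT4G04975, had a ratio of 1.08. It held 2.95, 2.03 and 2.93 RPM in zmp-2 and 1.80, 2.89 and 3.90 RPM in ZMP-YFP zmp-2, and no read in any WT or Pol IV mutant library. The fourth and the fifth had ratios below 1. They were chr3:11031401-11031500, the neighbour of the second (0.844), and chr2:8823201-8823300, 369 bp from the defensin-like gene AT2G20463 (0.841), which held 3.17, 2.26 and 2.83 RPM in zmp-2 and 2.00, 3.00 and 1.95 RPM in the tagged line. The groups overlapped there too.

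The opposite end held 23 windows without a read in ZMP-YFP zmp-2. Besides the MIR167d window, the first of them in genome order were chr1:5632901-5633000, between genes, chr1:16219101-16219200 at the start of AT1G43090, and a pair of neighbours near AT1G68250, chr1:25578301-25578400 and chr1:25578401-25578500. The first of these held 9, 8 and 20 reads in zmp-2 of set A, 20, 22 and 12 in set B and 40, 48 and 61 in zmp-2 shh1-1. It lay 24500 bp from the nearest window with 20 WT reads, whereas chr1:16219101-16219200 lay 100 bp from one and was not uniquely mappable (24% of its 24-mers).

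Coding windows had the lowest ZMP-YFP ratio of the large classes, with a median of 0.0288 over 40 windows and a highest value of 0.406. The median was 0.0669 over the 100 windows between genes, 0.122 over the 23 in pseudogenes, 0.133 over the 9 in lncRNA genes, 0.0586 over the 14 in UTRs and 0.0561 over the 10 in introns. Without replicate 1 these medians were 0.0032 (coding), 0.0271 (between genes), 0.0651 (pseudogenes), 0.0159 (lncRNA genes), 0.012 (UTRs) and 0.0449 (introns), so the order of the smaller classes rests on that library. Of the 9 windows with a ratio of at least 0.5, 7 lay between genes (6 of 8 without replicate 1). These classes were compared after the values were seen and were not tested. AT5G44770 alone carried 32% of the reads (summed RPM) that the 197 windows held in ZMP-YFP zmp-2, and the 9 windows carried a further 26.4%. Without replicate 1 these shares were 35.2% and, for the 8 windows then left, 35.4%.

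Counted by locus, the replicates of the tagged line differed in which places kept siRNAs. A ratio of at least 0.25 of the zmp-2 mean was reached at 41 of the 143 loci in replicate 1, 13 in replicate 2 and 20 in replicate 3, and at 6 loci in all 3. At 10 loci replicate 1 reached 0.25 while both others stayed under 0.05, AT2G04015 and AT2G24260 among them, and at 4 loci replicate 1 stayed under 0.05 while replicate 2 or 3 reached 0.25.

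ZMP-YFP zmp-2 against WT asks whether siRNAs stayed above WT with the transgene present. Of the 71 windows with enough reads, 12 were higher in the tagged line and none was lower (edgeR, FDR of at most 0.05, with 34 at an unadjusted p under 0.05), where 0.134% of all 122610 windows tested were higher and 0.455% were lower. WT reads chose the windows to be low, so nothing is read from this count. As a description, the 12 were 6 windows of AT5G44770, the AT1G66090 window, chr3:10741801-10741900, the pair beside AT3G00550, the AT4G04975 window and chr4:15363001-15363100 near AT4G31750. At AT1G66090 the tagged line held 21, 16 and 6 reads against none in WT of either set. Without ZMP-YFP replicate 1, 11 windows were higher of 35 tested. These 3 comparisons share the ZMP-YFP libraries and are not independent of each other.

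Windows with at least 20 24-nt reads over the 6 WT libraries mark places where WT already had siRNAs. Such a window lay within 1000 bp of 60.9% of the 197 windows and of 56.7% of the other new windows, against 33.8% of all windows with a 24-nt read and at most 6 WT reads. The order turned at shorter range: within 500 bp the shares were 39.6% of the 197 and 48.5% of the other new windows. The median distance was 800 bp for the 197 and 600 bp for the others, and these values were not tested. Within 1000 bp, 48 of the 197 (24.4%) had fewer than 20 WT reads in all, against 41.2% of the others, and the median was 89 reads against 57. From 500 to 2000 bp away, 10.7% of windows on average held at least 1 RPM in WT of set A, 18.1% in zmp-2, 11.1% in ZMP-YFP zmp-2 (10.5% without replicate 1) and 16.4% in zmp-2 shh1-1. Around the other new windows these shares were 6.57%, 6.77%, 6.38% and 3.25%. The zmp-2 shh1-1 shares are of set B, where zmp-2 averaged 15.7% around the 197 and 6.06% around the others. All of these shares count neighbours that are new windows themselves. With all 294 new windows left out and each place counted once, 4148 windows around the 197 remained. Of these, 16.2% held at least 1 RPM in zmp-2 of set A, against 11.2% in WT of that set. In set B, zmp-2 reached 14.3% and zmp-2 shh1-1 reached 14.4%, where WT stood at 10.7%. The mean level of the 4148 windows was 1.99 ± 0.0274 RPM in WT and 2.15 ± 0.141 RPM in zmp-2 of set A (SD, n = 3 for both).

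**Figure D5:**
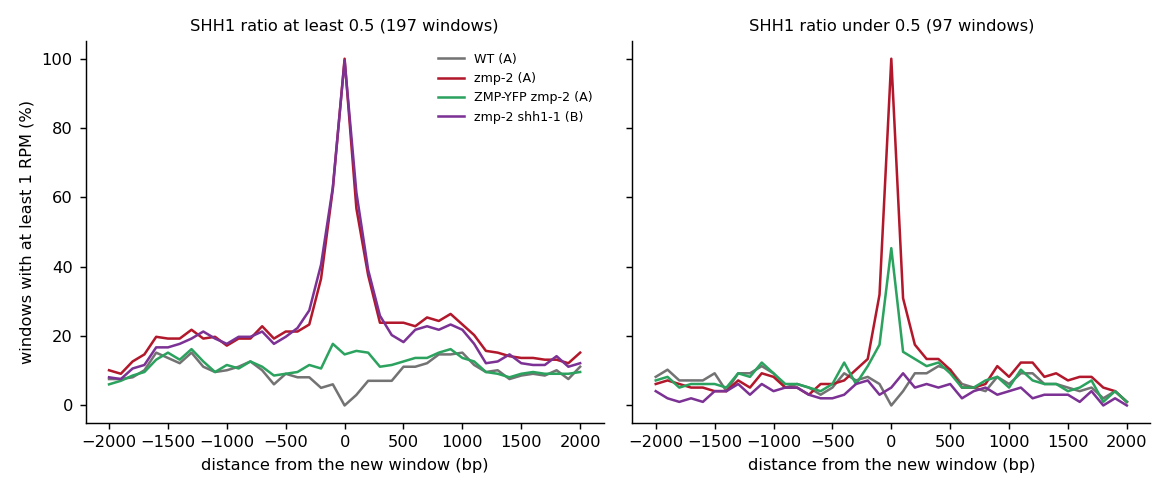
Share of windows with at least 1 RPM of 24-nt reads (%) at each distance from the new windows (bp), for the 197 windows with an SHH1 ratio of at least 0.5 (left) and the 97 under 0.5 (right), in WT and zmp-2 of set A, ZMP-YFP zmp-2 and zmp-2 shh1-1. Values at distance 0 for WT, zmp-2 and zmp-2 shh1-1 follow from how the windows were chosen, and on the left the red and purple lines stay above the grey line from 500 to 2000 bp on average (18.1% and 16.4% against 10.7%, neighbouring new windows included). The purple line is of set B, where zmp-2 averaged 15.7% and WT 10.4% over these distances.

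Pericentromeric regions held 25.4% of the 197 windows and 10.3% of the other new windows, against 33.7% of all windows with a 24-nt read, 26.5% of those with at most 6 WT reads and 47.3% of windows with at least 20 WT reads. Among uniquely mappable windows, which made up 71.6% of the 197 and 74.2% of the others, the shares were 8.51% and 8.33%. The share was 19.3% of all uniquely mappable windows with a 24-nt read and 14.3% of those with at most 6 WT reads. The windows had a median GC content of 38% (quartiles 34 and 43%), against 31% in the other new windows and 37% in windows with at least 20 WT reads. The ZMP-YFP ratio of the uniquely mappable windows had a median of 0.0615, and without AT5G44770 the median of all was 0.0586.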

How the data were processed

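Small RNA reads were handled by the authors as their methods state: adapters were trimmed, rRNA, tRNA and snoRNA matches set aside with Bowtie (version 1.1.0 in the submitters' processing notes), and the rest mapped to TAIR10 with ShortStack, which places multi-mapped reads by nearby unique reads. The authors deposited, per library and 100-bp window, the count of reads of 21 to 24 nt, RPM (relative to all mapped reads) and a score, RPMR, which is the count scaled by 45S rRNA reads. Each read was assigned to the window of its 5′ end. Absent windows were taken as 0. Libraries held 0.532 to 8.35 M reads of 21 to 24 nt.

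Groups, the sets A and B and replicate numbers came from the labels, and p-values measure the spread between these replicates, which the study calls biological. Limits for 0 reads and intervals cover counting error only. Counts were tested per window with edgeR (version 4.0.16, R version 4.3.3) by glmQLFit and glmQLFTest, within set A, in windows with at least 10 summed reads, with 45S rRNA reads as library size. The procedure was tested on simulated data. Tables were made with pandas (version 2.3.3), numpy (version 2.4.6) and scipy (version 1.17.1), and plots with matplotlib (version 3.10.9). DESeq2 (version 1.42.0), TMM, other filters, a replicate block, leaving out each library and other limits of the rule were alternatives. A few further alternatives were chosen after seeing the data: the median ZMP-YFP ratio without AT5G44770 or over unique windows only, the SHH1 ratio on RPMR or on total reads, and the surroundings without the new windows.

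The members, gene lists and tests were chosen with earlier results of these data known. Named were the 6 loci with most windows, the 8 highest windows, the 5 highest and 5 lowest by ZMP-YFP ratio, the windows at each limit, and genes with at least 3 windows. Gene models are those of RefSeq TAIR10.1. Pericentromeres are runs of 100-kb bins around the lowest coding coverage, smoothed over 11 bins, below 0.5 of the chromosome median. Transposable element annotation was not used here.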

Additional observations from a re-analysis of the deposited data

How the results depend on the processing

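The number of windows chosen moved with the limits: 128 and 339 at a WT limit of 3 and 12 reads, 399 and 125 at a zmp-2 mean of 1 and 2 RPM, and 189 to 241 with 1 library left out. The median SHH1 ratio turned from above 1 to 0.873 on the RPMR scale. The share near a WT window was 39.6% within 500 bp, 83.2% within 5 kb and 45.2% for windows of at least 60 WT reads. At the other new windows these shares were 48.5%, 78.4% and 38.1%. The pericentromeric share was 8.51% over unique windows. The 24-nt share was 92.0% against 21-nt reads alone, 72.9% as a median over windows and 71.0 to 71.7% with 1 library left out.

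For ZMP-YFP zmp-2 against nrpd1-3, windows called higher were 18 with total reads, 0 with TMM and 0 with DESeq2, which called 1 lower (5 and 2 at an unadjusted p under 0.05) and whose median log2 fold change was -0.86, 102 with at least 1 read, 25 with at least 20 reads, and 25 to 52 with 1 library left out, the lowest without ZMP-YFP replicate 1. Against zmp-2 the range was 148 to 181, and against WT it was 8 to 11, with 21 when windows with at least 1 read were tested. The median ZMP-YFP ratio ranged from 0.0224 to 0.0858 with 1 library left out. TMM factors moved the median log2 fold change over all windows from -0.44 to -0.18 against zmp-2, from -0.36 to 0.01 against WT and from 6.37 to 4.67 against nrpd1-3. Over all windows, the split of higher and lower against zmp-2 was 6014 and 6547, but 7818 and 3937 with TMM and 6230 and 1902 with DESeq2. Against WT it was 164 and 558, but 252 and 292 with total reads, 279 and 269 with TMM and 263 and 258 with DESeq2.

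Correlations of deviations between libraries of the same replicate number were 0.0101 to 0.0886 for WT, -0.0448 to 0.0556 for zmp-2 and 0.00436 to 0.0122 for nrpd1-3, so the numbers were not taken to pair the libraries. With the replicate number as a block, 51, 181 and 13 windows were called against nrpd1-3, zmp-2 and WT. Depth limits the test against nrpd1-3, where 142 windows held fewer than 10 reads over both groups.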
